A study of Mus musculus with 18 samples.

Results

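The 77 genes described here encode proteins of the mitochondrial ribosome. They were chosen by gene name alone: a gene of the deposited table belonged to the group when its symbol was Mrpl or Mrps followed by a number and, in some cases, a letter. This rule took 77 of 47643 genes and 290 of 115125 transcript entries. No measured value entered it, but the group was chosen with earlier results of these data known. All samples were purified total RNA of 5G6GR mouse embryonic stem (ES) cells, a line grown without feeder cells on gelatin in serum with leukemia inhibitory factor, puromycin and blasticidin. In 15 libraries, 10 pg of this RNA was converted to cDNA by RT-RamDA, a method that copies RNA repeatedly by reverse transcription, and each library received 17 PCR cycles. These 15 libraries fell into 5 sets of 3 by primer. Used alone were random hexamers (N6), not-so-random primers meant to avoid ribosomal RNA (NSR) and oligo(dT) (dT). The mixed sets were N6 with dT (N6dT) and NSR with dT (NSRdT). The remaining 3 libraries, called bulk here, were made from 200 ng of total RNA by rRNA depletion with the KAPA RNA HyperPrep Kit with RiboErase and 7 PCR cycles. No label says that the 3 replicates of a group are separate cultures, and the p-values measure only the spread between these libraries, which may be technical. Bulk differs from the primer sets in input, kit, depletion and PCR cycles together, and these cannot be told apart.

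Mitochondria keep a ribosome of their own, which translates the few proteins encoded by mitochondrial DNA, all of them parts of the respiratory chain and ATP synthase. Its ribosomal RNAs come from mitochondrial DNA, but every one of its proteins is encoded in the nucleus, translated in the cytoplasm and imported. Mrpl proteins belong to the large subunit, which joins amino acids, and most Mrps proteins to the small subunit, which reads the mRNA. Some have a counterpart in bacterial ribosomes and others are specific to mitochondria. Their mRNAs are mostly short and polyadenylated. In reverse transcription oligo(dT) starts at the poly(A) tail, and random primers start anywhere along the RNA.

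The libraries held between 5362297 and 10326614 counts, ERCC spike-in entries included. Of the 77 genes, 75 had at least 1 count in all 18 libraries. Mrpl14 was at 0 in N6 replicate 1 and Mrpl41 in dT replicate 2. All 77 passed the filter on low counts in every comparison. Of the ES cell markers, 8 of 8 were detected in every library. Their summed level, in CPM (counts per 1000000 counts of the library) scaled by TMM (trimmed mean of M values), ran from 1660 to 1950 with N6 or NSR alone, from 3170 to 3350 with dT and from 2120 to 2700 in bulk. Dppa5a made up much of the difference (120 to 148 with N6 or NSR alone, 998 to 1090 with dT), while Pou5f1 was higher with random primers (177 to 232 against 105 to 148). The summed level of 6 fibroblast markers ran from 993 to 1330 with N6 or NSR alone and from 694 to 886 with dT. Nearly all of it was Fn1 or Vim, which differed in opposite directions (Fn1 842 to 1180 against 461 to 685 with dT, Vim 125 to 151 against 175 to 231), and Col1a1, Col1a2 and Col3a1 were at most 1.54 in any library. The 4 neuroectoderm markers summed to 25.4 to 39.1 with N6 or NSR alone and to 46.9 to 60.9 with dT, mostly Tubb3. The 8 primitive endoderm markers summed to 382 to 684 with N6 or NSR alone and to 193 to 342 with dT. In bulk replicate 2 they summed to 4580, against 526 and 470 in the other bulk libraries. In that library the mitochondrial ribosomal protein mRNAs lay at a median log2 difference of -0.06 from the mean of the other bulk libraries. The part of these marker differences in the results was not tested, and in RNA pooled from many cells fewer cells of a type and less RNA per cell cannot be told apart.

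Oligo(dT) primes next to the 3′ end of an mRNA, so the ends of some members described below are given first. The main transcript of a gene was the entry with the highest mean count over the 18 libraries. For 61 of 77 genes that entry had the same length in the GENCODE vM21 annotation of the GRCm38 build, and 54 of these were protein-coding. The last 30 bases are written 5′ to 3′, and the capitals mark the polyadenylation signal AATAAA or its common variant ATTAAA where present, searched on the transcript strand only.
Mrpl21: aaacaAATAAAgtattttttaggagactga
Mrpl42: ataggaaaaAATAAAaataccctttcatgt
Mrpl52: aaaaagcagctcctgccccactttcccaga
Mrps12: gtAATAAAtatatcttcaggttgtgatgtt
Mrps28: atttatAATAAAtgaaaagtaatcctgttc
Mrps14: aAATAAAaaccagtggagttttcccaatgt
Mrps5: atttgagAATAAAaaatgtttggcatctaa
Mrpl15: ggtATTAAAgctttgggtctgttaccagcc
Mrps10: aaatgctggATTAAAagtgtgtccaccatg
The first 6 belong to genes that were lower with random primers than with dT. Mrps5 and Mrpl15 are abundant genes that did not pass that test, and Mrps10 differed in its share of intron-retaining entries. The end shown for Mrps10 is that of a protein-coding entry, not of an intron-retaining one. For Mrpl15 it is that of an entry annotated as a processed transcript, without a coding part. Mrpl54 and Mrpl14, the members with the largest fitted differences from dT, are not shown, and neither signal stood in their last 30 bases. AATAAA stood in the last 30 bases of 29 of the 54 protein-coding transcripts (53.7%) and ATTAAA in 8 (14.8%). Among all 16033 protein-coding main transcripts matched by length the shares were 49.5% and 12.6%. Annotated ends are not measured ends, so the letters describe the annotation.

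In bulk, abundance per length ran from 5.70 TPM (estimated counts divided by transcript length and scaled to a common total per library) for Mrpl23 to 115 for Mrpl15, with a median of 36.0. The place of Mrpl23 depends on how reads were divided with the pseudogene Mrpl23-ps1, which shares much of its sequence and held a mean of 9.51 of their summed 11.2 CPM in bulk, and the next lowest was Mrpl57 (10.7 TPM). The 4 most abundant were Mrpl15 (115 ± 14.8 TPM, SD, n = 3), a large subunit protein with a bacterial counterpart, Mrpl42 (97.0 ± 4.55), which is specific to mitochondria, Mrps5 (95.6 ± 12.1), a small subunit protein near the mRNA path, and Mrps18b (89.8 ± 4.10), 1 of 3 proteins of the Mrps18 family. The last 3 of these did not differ beyond their spread. The order of the 77 genes by TPM was broadly kept across methods: Spearman's rho with bulk, over 77 genes that are not independent, was 0.780 for N6, 0.752 for NSR, 0.800 for dT, 0.868 for N6dT and 0.864 for NSRdT.

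Together the 77 genes took 0.0804, 0.0816 and 0.0870% of gene counts in the 3 N6 libraries and 0.0962, 0.102 and 0.0998% in the NSR libraries. With dT the shares were 0.329, 0.315 and 0.298%. With N6dT they were 0.102, 0.109 and 0.114%, and with NSRdT 0.154, 0.165 and 0.148%. The dT libraries stood above all others, bulk (0.267, 0.256 and 0.263%) came next, and the random primers alone were lowest. Entries annotated as ribosomal RNA took 30.9% of counts with N6, 28.1% with NSR, 27.7% with N6dT and 22.4% with NSRdT. With dT they took 6.23%, and in bulk 0.576%. After scaling by TMM, which compares each gene with the bulk of genes, the summed level was 1266 ± 62.5 CPM with N6 (SD, n = 3 libraries, as for each value here) and 1187 ± 17 with NSR. It was 2226 ± 123 for dT, 1448 ± 63.5 for N6dT, 1509 ± 52.7 for NSRdT and 1562 ± 51.1 for bulk. On this scale dT remained above all other libraries, while both mixtures lay close to bulk.

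**Figure D1:**
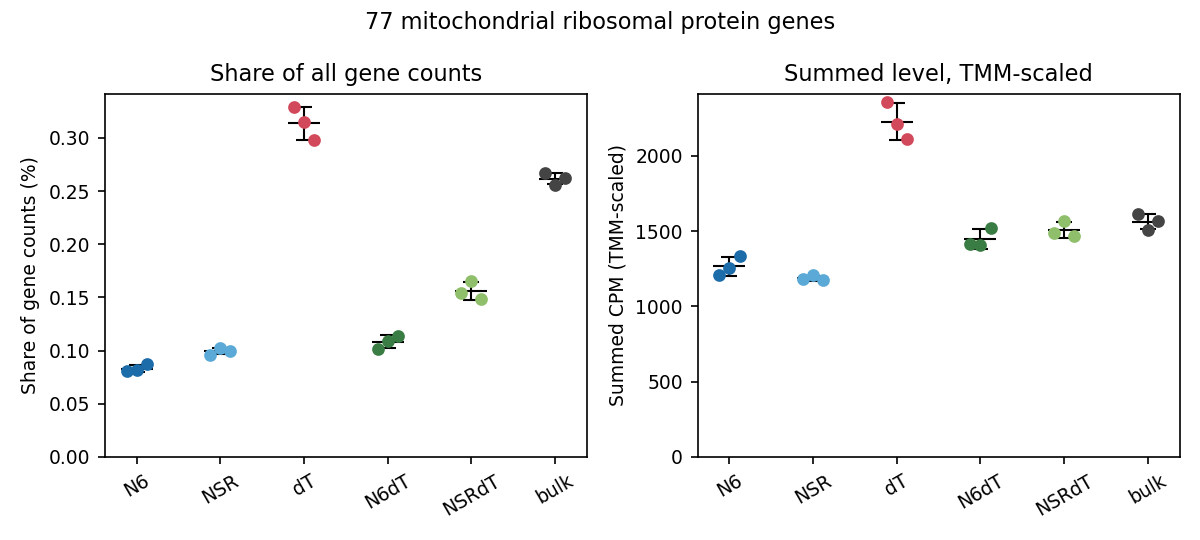
Left, share of gene counts (%) taken by the 77 mitochondrial ribosomal protein genes in each library; right, their summed level in TMM-scaled CPM. Points are libraries (3 per group), horizontal bars are means and error bars are SD; dT libraries are highest in both panels, and N6 and NSR lowest.

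Replicates of 10 pg RNA scattered more than bulk. The median coefficient of variation (SD over mean of CPM, 3 libraries) of the 77 genes was 0.336 for N6, 0.334 for NSR, 0.303 for dT, 0.271 for N6dT and 0.229 for NSRdT, against 0.0785 in bulk. For the 12914 genes at least as abundant in bulk as the lowest of the 77, the medians were 0.404, 0.407, 0.503, 0.381, 0.379 and 0.0932 in the same order. That lowest gene was Mrpl23, whose level depends on its pseudogene, while the median of the 77 in bulk was 18.8 CPM. The 12914 genes were thus not matched to the 77 by level, and whether scatter differs at equal level was not tested.

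The 6 libraries made with random primers alone (N6 or NSR) were compared with the 3 made with dT alone. Mitochondrial ribosomal protein mRNAs were lower with random primers: 27 of 77 (35.1%) were called lower and none higher, at an adjusted p under 0.05 (edgeR's quasi-likelihood test, Benjamini-Hochberg adjustment over 15682 genes). Among all tested genes 7.54% were called lower and 9.53% higher. Without adjustment, 45 of the 77 had a p under 0.05, against 30.8% of all genes. DESeq2 also called no member higher, where it called 16.2% of all genes higher. The median log2 fold change was -0.94 over the 77 and 0.12 over all genes, and 73 of 77 were below 0. In 33 of 77 (42.9%) every random-primed library lay below every dT library, against 9.62% of all genes. The count of called members fell to 15 without the filter on low counts, where 3.46% of all genes were lower, and to 14 when only protein-coding transcript entries were summed, where 6.37% were. With scaling by library totals alone it was 70, and 27.6% of all genes were then called lower.

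Members of both subunits were lower. Of the large subunit proteins, 12 of 30 with a bacterial counterpart (median log2 fold change -1.08) and 7 of 20 specific to mitochondria (median -0.65) were lower. Of the small subunit, 5 of 16 with a bacterial counterpart (median -1.28) and 3 of 10 specific to mitochondria (median -0.89) were lower. Mrps36, once counted as a small subunit protein and now placed in the 2-oxoglutarate dehydrogenase complex, had a log2 fold change of -1.10 and was not called. Whether these classes differ was not tested.

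Of the 27 calls, 6 held under all 16 alternatives of scaling, filter, test, design and left-out library: Mrpl21, Mrpl32, Mrpl36, Mrpl42, Mrpl52 and Mrpl57, all large subunit proteins. Of the 31-base sequences of Mrpl42, Mrpl21 and Mrpl32, 28.6, 26.6 and 24.0% also occur in other genes, so part of their reads is uncertain. For Mrpl36, Mrpl57 and Mrpl52 the shares were 2.7, 1.6 and 0%. Among other members described below, the share was 74.6% for Mrps25, 64.3% for Mrps18b, 55.6% for Mrps34 and 42.4% for Mrps18c. It was 41.3% for Mrpl19, 33.3% for Mrpl33 and 31.8% for Mrps10. The values of the 6 per library are as follows.

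Mrpl21, a large subunit protein with a bacterial counterpart (chr19:3282901-3292837, plus strand, GENCODE vM21 on GRCm38), read 52.9, 67.3 and 53.8 CPM with dT. With random primers alone it ran from 6.46 to 22.7 CPM, with a median of 10.0. No library of one side reached the other, and the log2 fold change was -2.26 ± 0.36 (SE; edgeR adjusted p = 0.000372), a level 4.78-fold lower. Mrpl32, whose maturation by a mitochondrial inner membrane protease is tied to ribosome assembly (chr13:14608184-14613165, minus strand), read 28.5, 22.3 and 35.5 CPM with dT. Its random-primed libraries ran from 4.43 to 9.48 CPM (median 8.73) and were again all lower. Mrpl36, one of the smallest large subunit proteins (chr13:73328513-73332178, plus strand), read 27.0, 14.8 and 17.8 CPM with dT and 1.76 to 5.66 (median 3.57) with random primers alone. Its difference was among the largest of the group, at -2.53 ± 0.49 on the log2 scale (edgeR adjusted p = 0.00176).

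Mrpl42 and Mrpl52 have no bacterial counterpart. Mrpl42 (chr10:95480805-95501940, minus strand) read 42.2, 51.1 and 86.0 CPM with dT and 15.9 to 25.0 (median 22.2) with random primers alone, a log2 fold change of -1.44 ± 0.28 (edgeR adjusted p = 0.00182). Mrpl52 (chr14:54426909-54429756, plus strand) has the shortest main transcript of the 77, 418 bases. It read 31.6, 23.2 and 43.9 CPM with dT and 6.73 to 13.3 (median 10.4) with random primers alone, -1.70 ± 0.35 on the log2 scale (edgeR adjusted p = 0.00295). Mrpl57, also specific to mitochondria (chr14:57826234-57829296, plus strand), read 24.9, 40.2 and 34.5 CPM with dT and 4.44 to 12.8 (median 8.77) with random primers alone. Its log2 fold change was -1.92 ± 0.37 (edgeR adjusted p = 0.00195). In each of these 3 genes the dT libraries were the 3 highest of the 9.

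**Figure D2:**
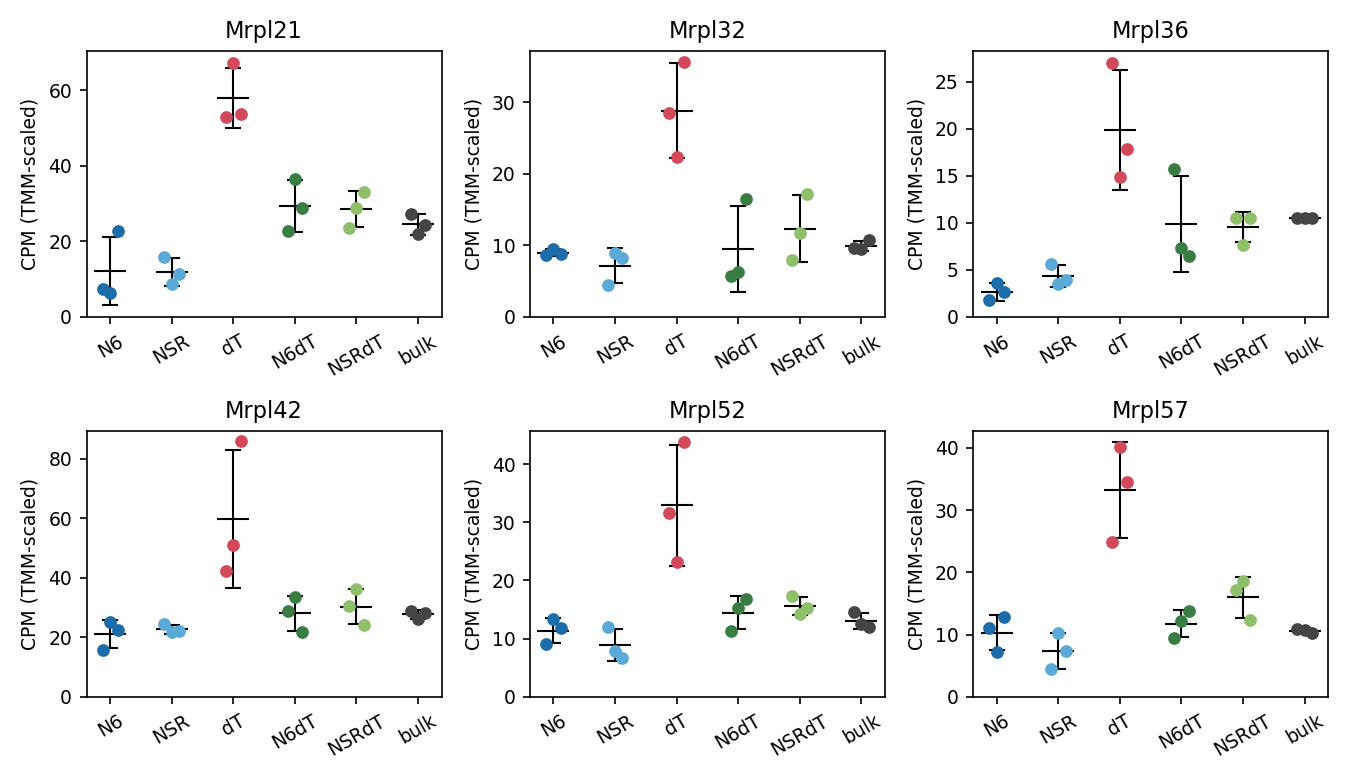
TMM-scaled CPM of the 6 members called lower with random primers than with dT under every alternative, in each of the 18 libraries. Points are libraries, horizontal bars means and error bars SD (n = 3); in each panel the 3 dT libraries lie above all N6 and NSR libraries, and bulk lies below dT.

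The largest fitted differences belonged to low-abundance members. Mrpl54, a large subunit protein specific to mitochondria, read 5.23, 3.68 and 18.1 CPM with dT and 0.153 to 1.90 (median 1.29) with random primers alone. Mrpl14, at the interface of the subunits, read 12.1, 13.9 and 5.21 CPM with dT and 0 to 2.93 (median 1.75) with random primers alone. Mrps28, a small subunit protein, read 17.9, 15.7 and 38.8 CPM with dT and 0.146 to 9.08 (median 2.78) with random primers alone. The groups did not overlap in any of the 3, but the dT libraries themselves differed by more than 2 times. The log2 fold changes were -2.89 ± 0.79, -2.81 ± 0.86 and -2.65 ± 0.78, with edgeR adjusted p of 0.0200, 0.0351 and 0.0283. These calls ended under 5, 10 and 7 of the 16 alternatives.

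Mrps12, which forms part of the decoding centre, read 24.4, 19.98 and 13.4 CPM with dT and 1.61 to 7.03 (median 5.17) with random primers alone (log2 fold change -2.06 ± 0.50, edgeR adjusted p = 0.0101). Mrps24, a small subunit protein near the mRNA entry, read 38.1, 25.3 and 22.9 CPM with dT and 3.42 to 12.1 (median 6.42) with random primers alone (-2.04 ± 0.47, adjusted p = 0.00684, edgeR). Both calls ended only when protein-coding entries alone were summed. The main entry of Mrps24 is annotated as an intron-retaining transcript, so most of its counts leave with that choice. Mrpl23, which lines the exit of the peptide tunnel, had a log2 fold change of -2.27 ± 0.70 (edgeR adjusted p = 0.0359). Its call ended under 9 of the 16 alternatives, and the gene shares 77% of its 31-base sequences with the pseudogene Mrpl23-ps1. Summed with that pseudogene it was 4.4-fold higher with dT than with random primers, against 4.81-fold alone.

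Median bulk abundance was 37.0 TPM for the members called lower and 34.9 for those not called. Of the most abundant members, Mrpl42 was called, as given above. In Mrps18b, Mrps5 and Mrpl15 the difference was smaller than in Mrpl42 or did not pass. Mrps18b read 65.7, 62.8 and 46.0 CPM with dT and 22.3 to 43.0 (median 28.7) with random primers alone, a 1.91-fold lower level (edgeR adjusted p = 0.0210), and the call ended without dT replicate 1 or 2. Mrps5 ranged from 44.8 to 79.1 CPM with random primers and read 68.9, 80.9 and 64.5 with dT, so the groups overlapped (log2 fold change -0.21 ± 0.21). Mrpl15 overlapped as well, with 105, 56.5 and 66.7 CPM with dT and 37.0 to 77.9 with random primers (-0.49 ± 0.24, edgeR adjusted p = 0.185). With protein-coding entries alone the signs of Mrps5 and Mrpl15 turned, to 0.09 and 0.43. The other members of the Mrps18 family, Mrps18c and Mrps18a, had log2 fold changes of -0.63 ± 0.49 and -0.64 ± 0.43 and were not called. With library totals alone both were called lower, and Mrps18c turned to 0.25 with protein-coding entries alone. Whether the 3 differ from each other was not tested.

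Only 4 members had a value above 0: Mrpl53, Mrpl1, Mrpl48 and Mrps35. None was called, and they are named here after their values were seen. Mrpl53, specific to the mitochondrial large subunit, was the highest, at 0.80 ± 0.71. It read 2.44, 5.48 and 1.62 CPM with dT, 4.23 to 7.03 with random primers alone and 9.10, 9.97 and 8.39 in bulk, so it was the member furthest below bulk with dT (log2 fold change -1.52). All of its 31-base sequences also occur in the overlapping gene model Gm42688, so its reads are uncertain, and with scaling by library totals its sign against dT turned to -0.13.

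The rule also asked for transcript length. The main transcripts ran from 418 to 6073 bases, with a median of 1134. Medians below 1000 bases were lower than above, in this group as among all protein-coding genes, but below 1000 bases they did not follow the order of length in either. Below 600 bases 3 of 6 members were called lower, from 600 to 800 bases 10 of 18, from 800 to 1000 bases 4 of 8, from 1000 to 1500 bases 7 of 21 and at 1500 bases or more 3 of 24. Of all protein-coding genes in these bins 44.1, 41.9, 36.6, 23.2 and 4.69% were called lower, so much of the members' count is near the share for their length. The median log2 fold changes in these bins were -1.43, -1.57, -1.95, -0.88 and -0.73. Over all protein-coding genes in the same bins they were -1.27, -1.47, -1.24, -0.84 and 0.08. Below 800 bases and from 1000 to 1500 bases the members lay near other mRNAs of their length, and at 1500 bases or more their median was below that of other long mRNAs. Across the 77 genes the Spearman correlation of length with the log2 fold change was 0.422, and across 11601 protein-coding genes it was 0.458; genes share the same libraries and are not independent, so no p is given.

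**Figure D3:**
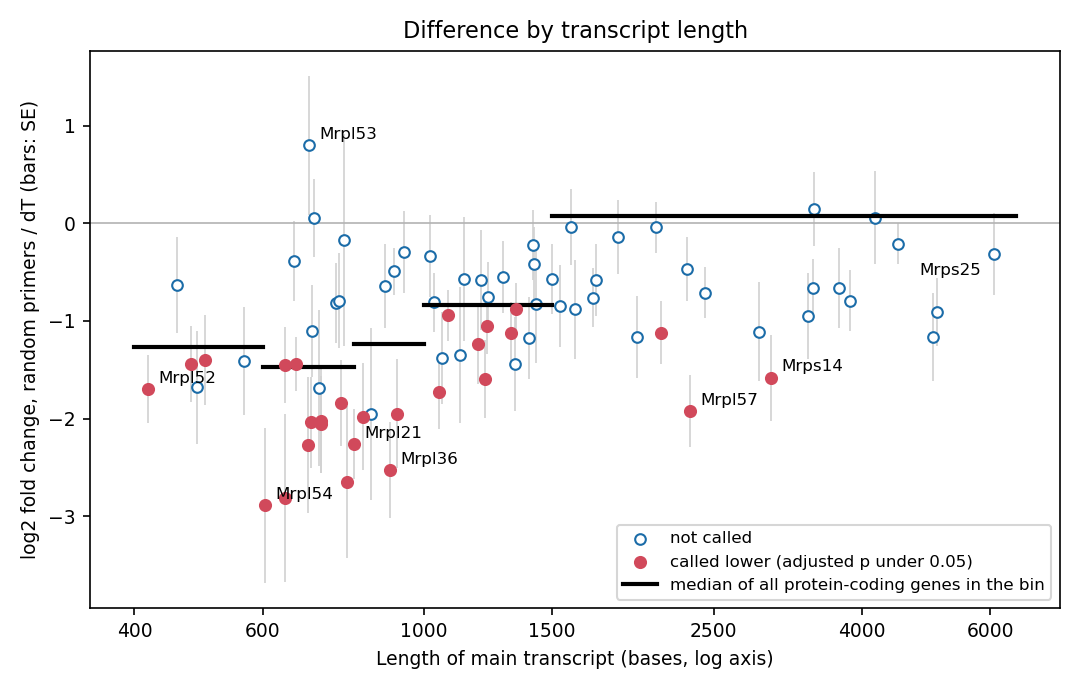
Log2 fold change of each of the 77 genes, random primers alone over dT alone, against the length of its main transcript (bases, log axis); vertical bars are SE. Filled points are the 27 called lower, open points were not called, and black lines are medians of all protein-coding genes per length bin, from -1.27 below 600 bases to 0.08 at 1500 bases or more.

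Finer bins, chosen after the values were seen, gave 2 of 12 called lower from 1500 to 2500 bases, 1 of 7 from 2500 to 4000 and 0 of 5 above, with medians of -0.73, -0.79 and -0.31. All protein-coding mRNAs in these bins had medians of -0.44, -0.05 and 0.41, and 11.5, 3.58 and 0.962% of them were called lower. The long members called lower include Mrpl57 (2321 bases) and Mrps14, a small subunit protein near the decoding site (chr1:160195215-160202170, plus strand), whose main transcript of 2999 bases has a coding part of only 387. Mrps14 read 44.7, 60.6 and 42.2 CPM with dT and 6.95 to 30.0 (median 13.1) with random primers alone, -1.58 ± 0.44 on the log2 scale (edgeR adjusted p = 0.0206). The call ended without dT replicate 2 and with protein-coding entries alone. Long members encoded short proteins: in the 17 members of 1500 bases or more with a matched protein-coding model the median coding length was 789 bases, against 1578 in 7692 such genes. Sorted by coding length, 10 of 21 members below 500 bases, 8 of 19 from 500 to 800 and 0 of 14 from 800 to 1400 were called lower, with medians of -1.44, -0.94 and -0.52. The medians of all protein-coding genes by the same coding lengths were -0.89, -0.51 and -0.29, and 29.1, 15.1 and 9.97% of them were called lower. Over the 54 matched members Spearman's rho with the log2 fold change was 0.481 for coding length and 0.308 for 3′ UTR length. For transcript length it was 0.471 over the same 54, close to that of coding length. Over 9185 matched protein-coding genes rho was 0.37 for coding length and 0.29 for 3′ UTR length. The 3 longest members, Mrps25 (6073 bases, log2 fold change -0.31 ± 0.42), Mrps17 (5061 bases, -0.91 ± 0.35) and Mrpl19 (5000 bases, -1.16 ± 0.45), were not called. Among the shortest, Mrpl33 (478 bases) was lower with random primers (-1.44 ± 0.39, edgeR adjusted p = 0.0180) and Mrps18c (457 bases) was not called.

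The next comparison asked what dT added to random primers changed, with N6dT and NSRdT (6 libraries) against N6 and NSR (6 libraries). Mrpl21 was the only mitochondrial ribosomal protein mRNA called, and it was higher with dT added. It ranged from 22.8 to 36.6 CPM (median 28.9) in the mixtures and from 6.46 to 22.7 (median 10.0) with random primers alone, so the groups just failed to touch. The log2 fold change was 1.27 ± 0.32 (edgeR adjusted p = 0.0482), a 2.41-fold higher level, close to the 24.5 ± 2.74 CPM of bulk. The count was 0 with DESeq2 size factors and 3 by library totals, where 3.27% of all genes were higher. The call of Mrpl21 ended under 15 of 19 alternatives, with adjusted p from 0.00223 to 0.186. The background in this comparison was 1.80% of 15682 genes higher and 0.376% lower. No member was called lower, and 9 of 77 had an unadjusted p under 0.05, against 8.94% of all genes. DESeq2 called 4 members higher and none lower, and 2.63 and 1.02% of all genes. The median over the 77 was 0.42 and 59 lay above 0, against a median of -0.02 over all genes.

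The members next to Mrpl21 by p had larger but noisier differences. Mrpl36 read 6.51 to 15.8 CPM (median 9.08) in the mixtures and 1.76 to 5.66 with random primers alone (log2 fold change 1.51 ± 0.42, edgeR adjusted p = 0.0996). Mrpl54 read 3.54 to 8.74 CPM (median 5.32) against 0.153 to 1.90 (2.21 ± 0.70, edgeR adjusted p = 0.181). Mrpl33, which overlapped between the groups, had 1.04 ± 0.33 (adjusted p = 0.192, edgeR). In 5 of 77 members (6.49%) all 6 mixed libraries lay above all 6 others, against 2.13% of all genes, and in none all lay below, against 0.625%. This comparison shares the N6 and NSR libraries with the preceding one, so the opposite signs of the medians are not independent. Of the 11 members singled out by level, length or the Mrps18 name, none was called, with log2 fold changes from -0.35 to 1.04.

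No member was called between NSR and N6. With and without dT together (6 libraries each), 0 of 77 were called in either direction by edgeR or DESeq2, with 1 at an unadjusted p under 0.05 (5.41% of all genes), the median was -0.01 and the range -0.76 to 1.10. The background was as low, 0.0446% of genes higher and 0.128% lower. Mrpl44, a large subunit protein related to RNase III, had the smallest p: 3.59 to 21.9 CPM (median 12.6) with NSR and 2.35 to 8.27 (median 6.35) with N6, a log2 fold change of 1.10 ± 0.51 (edgeR adjusted p = 0.912). The groups overlapped. Mrps26 (-0.76 ± 0.40), Mrpl13 (-0.55 ± 0.29) and Mrpl10 (0.46 ± 0.25) followed, also with overlap.

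Each primer set was then compared with bulk. These 5 comparisons share the 3 bulk libraries, so their results are not independent of each other, and the dT libraries also entered the comparison with random primers. With dT, 10 of 77 members (13.0%) were called higher than bulk and none lower, where 6.90% of all genes were higher and 11.9% lower. The median over the 77 was 0.43, against -0.19 over all genes, and 70 lay above 0. In 37 members (48.1%) every dT library exceeded every bulk library, against 14.8% of genes. The 10 were Mrpl10, Mrpl21, Mrpl23, Mrpl32, Mrpl42, Mrpl45, Mrpl52, Mrpl57, Mrps14 and Mrps24. Without bulk replicate 1, 2 or 3 the count was 0, 2 or 0, and without dT replicate 1, 2 or 3 it was 13, 16 or 19. Of all genes, 223 of 16475, 431 of 16262 and 180 of 16311 were higher without bulk replicate 1, 2 or 3. Without dT replicate 1, 2 or 3, 1605 of 16574, 1664 of 16594 and 1565 of 16580 were higher. The count of members was 16 with DESeq2, which called 9.64% of all genes higher.

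Mrpl57 read 24.9, 40.2 and 34.5 CPM with dT and 10.8, 10.8 and 10.3 in bulk, a 3.15-fold higher level (log2 fold change 1.66 ± 0.26, edgeR adjusted p = 0.00968). Mrpl32 read 28.5, 22.3 and 35.5 CPM against 9.57, 9.43 and 10.7 (1.55 ± 0.28, edgeR adjusted p = 0.0115). Both were well apart from bulk in all libraries. Mrpl52 had 12.0 to 14.5 CPM in bulk and was 2.55-fold higher with dT, Mrpl21 2.38-fold, Mrpl42 2.17-fold, Mrps14 2.11-fold and Mrps24 2.07-fold. Mrps24 turned to a log2 fold change of -0.43 with protein-coding entries alone. Mrpl10, which carries the stalk of the large subunit, was 1.82-fold higher and Mrpl45, which ties the ribosome to the inner membrane, 2.02-fold higher; both are outside the naming rule by size. The largest value, 11.8-fold for Mrpl23 (31.4, 15.6 and 13.3 CPM with dT, 1.02, 1.36 and 2.75 in bulk), came down to 2.95-fold when the counts of Mrpl23-ps1 were added. That sum read 38.0, 28.7 and 32.7 CPM with dT and 11.2, 11.8 and 10.7 in bulk, and was formed after the values were seen.

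With random primers alone most members had values below bulk, but few were called. With N6, 3 of 77 (3.90%) were called lower and none higher, where 3.90% of genes were lower and 3.31% higher, so the called share was that of the background. The median was -0.48, against -0.03 over all genes, 63 lay below 0, and in 37 members (48.1%) all N6 libraries lay below all bulk libraries, against 20.4% of genes. Mrpl36 read 1.76, 3.63 and 2.61 CPM with N6 and 10.5, 10.6 and 10.6 in bulk, 3.92-fold lower (edgeR adjusted p = 0.0384). Mrpl54 read 0.784, 1.41 and 1.81 CPM against 6.79, 8.65 and 6.36, 5.38-fold lower (adjusted p = 0.0409, edgeR). Mrpl18, a large subunit protein with a bacterial counterpart, read 12.7, 16.9 and 18.3 CPM against 34.9, 30.2 and 30.8, 1.98-fold lower (adjusted p = 0.0425, edgeR). In none of the 3 did the libraries overlap. All 3 calls ended without any 1 of the bulk libraries.

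With NSR, 2 of 77 (2.60%) were called lower and none higher, where 4.65% of genes were lower and 4.01% higher. The median was -0.52, 66 lay below 0 and in 44 members (57.1%) all NSR libraries lay below bulk, against 21.0% of genes. Mrpl43, specific to mitochondria, read 4.18, 7.26 and 6.74 CPM with NSR and 17.1, 17.3 and 18.2 in bulk, 2.88-fold lower (edgeR adjusted p = 0.0348). Mrpl24, with a bacterial counterpart, read 18.2, 24.0 and 23.9 CPM against 41.3, 39.2 and 43.6, 1.87-fold lower (adjusted p = 0.0325, edgeR). Both stood clear of bulk, but 40.3% of the 31-base sequences of Mrpl24 also occur in the overlapping Rrnad1, and 24.0% of those of Mrpl43 in Twnk. These calls too ended without any 1 of the bulk libraries.

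In both mixtures the members lay near bulk by their median. With N6dT the median over the 77 was -0.09 and with NSRdT -0.10, against -0.03 and -0.04 over all genes. All N6dT libraries lay below all bulk libraries in 27.3% of members, against 19.2% of genes, and above in 1.3%, against 10.8%. All NSRdT libraries lay below bulk in 15.6% of members, against 19.0% of genes, and above in 5.19%, against 11.7%. With N6dT 1 of 77 (1.30%) was lower and none higher, where 2.09% of genes were lower and 2.70% higher. That member, Mrps21, a small subunit protein with a bacterial counterpart, read 5.11, 5.15 and 3.94 CPM with N6dT and 11.5, 15.9 and 16.0 in bulk (log2 fold change -1.57 ± 0.32, edgeR adjusted p = 0.0420), and its call ended without any 1 of the bulk libraries. With NSRdT no member was called by edgeR, where 2.58% of genes were lower and 2.69% higher, 5 had an unadjusted p under 0.05 (18.9% of all genes) and DESeq2 called 1 lower (5.15% of all genes). Mrps21 had the smallest p there too, at 7.81, 5.17 and 6.34 CPM (-1.15 ± 0.31, edgeR adjusted p = 0.0943). Mrps18c (-0.85 ± 0.30), Mrps14 (0.52 ± 0.20) and Mrps34 (-0.72 ± 0.30) followed. Differences between the primer sets in their distance to bulk were not tested.

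**Figure D4:**
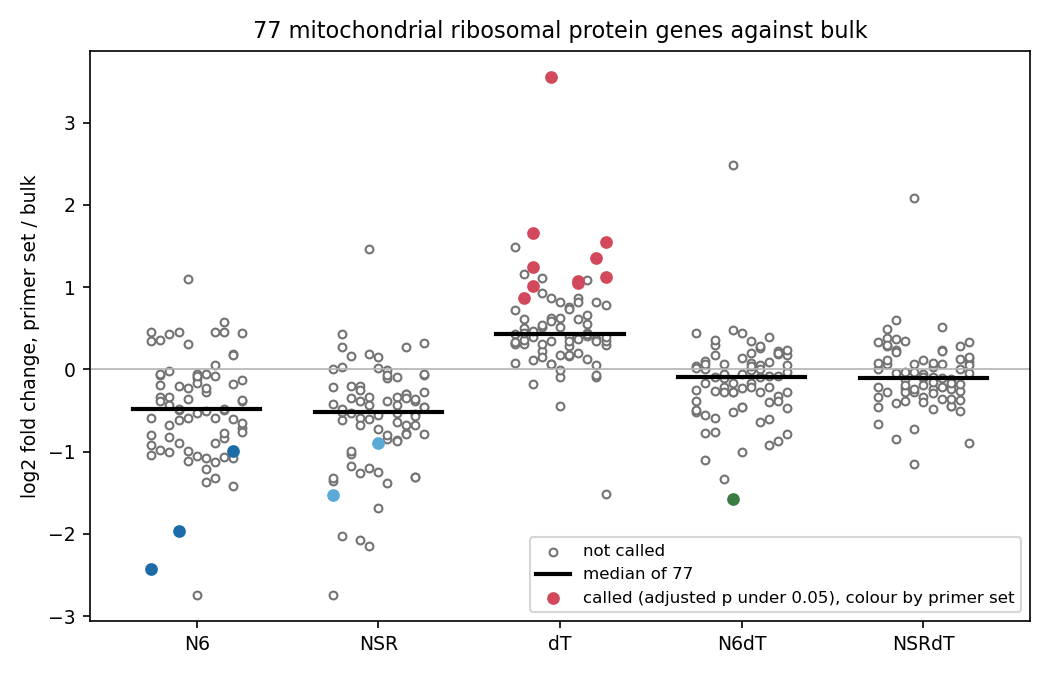
Log2 fold change of each of the 77 genes in each primer set over bulk; black lines are medians, and filled points are called genes. The medians lie at -0.48 (N6), -0.52 (NSR), 0.43 (dT), -0.09 (N6dT) and -0.10 (NSRdT); the single high point with dT, at 3.56, is Mrpl23.

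Length entered these comparisons in the same direction with random primers. Spearman's rho of length with the log2 fold change against bulk over the 77 genes was 0.304 for N6, 0.460 for NSR, 0.0890 for N6dT, 0.137 for NSRdT and -0.116 for dT. Over all protein-coding genes it was 0.268, 0.276, 0.105, 0.111 and -0.347. With NSR the median of members below 600 bases was -1.15 and at 1500 bases or more -0.30.

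The deposited table separates transcript entries, which allowed the forms of these RNAs to be compared. Entries annotated as retaining an intron, which are RNAs not fully spliced, exist for 37 of the 77 genes. They took 10.2, 13.2 and 10.5% of the group's counts with N6 and 14.5, 11.4 and 9.76% with NSR. With dT they took 6.10, 6.21 and 3.51%. Their share was 9.20, 7.72 and 10.1% for N6dT, 7.45, 8.86 and 8.50% for NSRdT, and 7.42, 8.54 and 8.35% for bulk. The dT libraries were the 3 lowest of the 18, and every library with random primers alone lay above every bulk library. In 26 of the 37 genes the share was higher with N6 and with NSR than with dT, in 6 it was lower with both and in 5 neither held. The share of such entries over all genes is not given here, so these differences cannot be called particular to the 77 genes. Protein-coding entries took 84.8 ± 1.20% with dT and 77.8 ± 1.87% with NSR (SD, n = 3). Entries annotated for nonsense-mediated decay took 5.77 ± 0.275% with dT and 3.50 ± 0.255% in bulk. Exons shared between entries are divided by estimation, and the estimator is not given in the sources used here.

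Mrps10, a small subunit protein of the head region (chr17:47368887-47381417, plus strand), showed this most clearly among the 3 genes chosen after their values were seen. Intron-retaining entries took 70.2, 62.4 and 76.3% of its counts with N6 and 83.9, 85.4 and 49.5% with NSR. With dT they took 4.74, 15.9 and 1.04%, and in bulk 40.2, 45.3 and 43.1%. No library with random primers alone reached the dT range, and bulk lay between them. In the mixtures they took 4.36, 5.73 and 65.4% with N6dT and 69.8, 51.1 and 50.6% with NSRdT. The total of Mrps10 was not called lower with random primers. Mrps18a had 17 to 37.9% with N6, 19.6 to 35.5% with NSR, at most 7.41% with dT and 16.0 to 23.7% in bulk. Random primers alone and dT again did not overlap. Its share was 0, 47.0 and 0% with N6dT and 8.95, 13.3 and 9.38% with NSRdT. Mrpl13, a large subunit protein, had 25.0 to 29.7% in bulk and at most 2.05% with dT, but ran from 0 to 68.3% among N6 libraries, so its groups overlapped. Mrps24 went the other way for bulk: 53.7 to 61.9% there and 52.1 to 96.2% with dT.

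**Figure D5:**
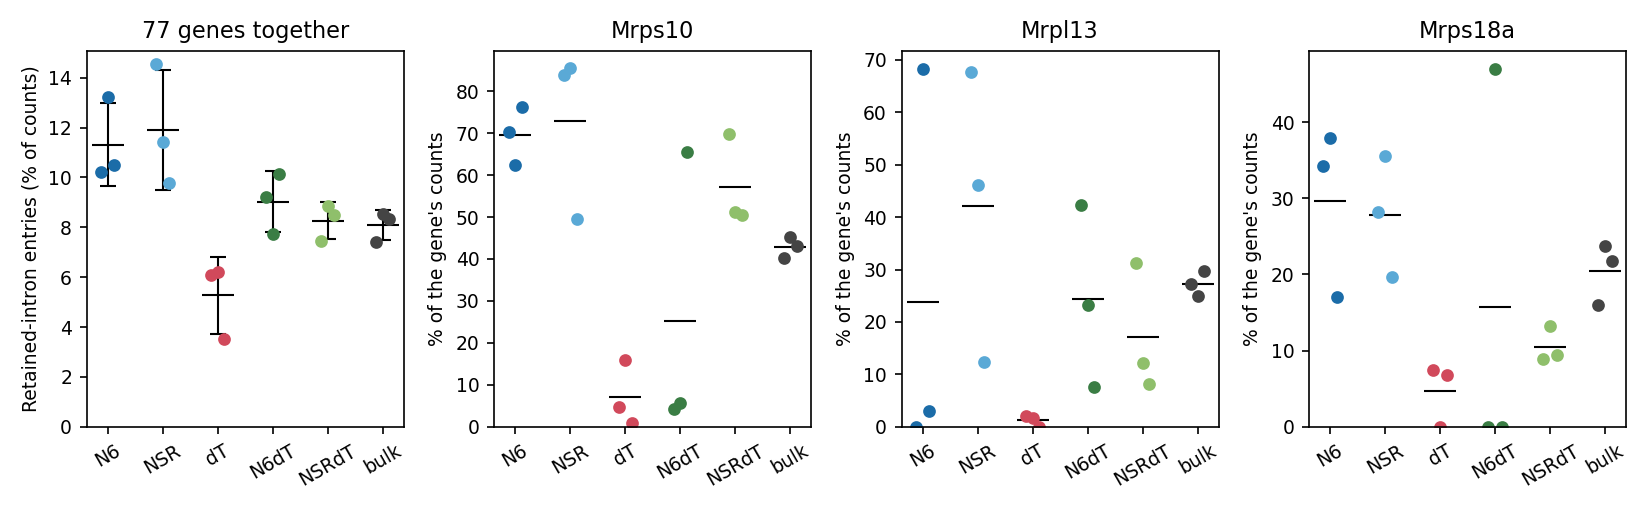
Share of counts (%) on entries annotated as retaining an intron, for the 77 genes together (left; bars are mean ± SD) and for Mrps10, Mrpl13 and Mrps18a (bars are means). Points are libraries, 3 per group; dT libraries are lowest in the left panel, and Mrps10 lies at 49.5 to 85.4% with N6 or NSR, at or below 15.9% with dT and between 40.2 and 45.3% in bulk.

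Of 61 genes with more than 1 entry, the entry with the most counts was the same in dT and bulk for 53 and in all 6 groups for 38. It was not protein-coding for 6 genes in bulk, 8 with dT, 8 with N6 and 11 with NSR.

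Other genes of mitochondrial translation gave the following counts for random primers alone against dT. Of 6 tested mitoribosomal subunits named outside the Mrpl and Mrps scheme, 2 were lower: Chchd1 (-3.02 ± 0.50) and Aurkaip1 (-1.79 ± 0.34), both small subunit proteins. Chchd1 read 24.7, 35.2 and 31.4 CPM with dT, 1.57 to 6.46 with N6 or NSR alone and 14.6, 14.1 and 15.5 in bulk, so its dT libraries stood above all others. Of 15 translation factors 3 were lower, namely Slirp (-2.69 ± 0.43), which with Lrpprc stabilises mitochondrial mRNAs, and the elongation factors Tsfm (-1.82 ± 0.46) and Tufm (-1.18 ± 0.24). Taco1, a translational activator of cytochrome oxidase subunit I, was higher: it had 0 counts in all dT libraries and 0.392 to 8.34 CPM (median 1.92) with random primers alone, a mean at least 14.4-fold higher when 3 counts per dT library are taken as the floor. Without NSR replicate 3, the highest, the bound was 9.35-fold. Of 22 assembly factors 2 were lower, Ngrn (-1.40 ± 0.31) and Trub2 (-0.85 ± 0.25). Of 20 aminoacyl-tRNA synthetases and amidotransferase subunits none was lower, and Lars2 was called higher at 0.13 ± 0.04. Lars2 read 107000 to 141000 CPM in the libraries compared and 10.8 to 16.7 in bulk, so its value is not taken as that of a synthetase mRNA. The RNAs of the mitochondrial ribosome itself, mt-Rnr1 (7.64 ± 0.08) and mt-Rnr2 (1.26 ± 0.03), were higher with random primers. All of these stand on the log2 scale with SE.

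The groups most like the 77 by function are the nuclear subunits of complexes I to V, which work beside the products of this ribosome, and the cytoplasmic ribosomal proteins. In the same comparison 63 of 87 and 79 of 81 of these were lower, with median log2 fold changes of -1.67 and -1.78, against 27 of 77 and -0.94. With dT added to random primers 32 of 87 and 67 of 81 were higher, against 1 of 77. Their levels differ too: median bulk CPM was 32.9 and 366, against 18.8 for the 77. Whether the groups differ in response at equal level was not tested.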

How the data were processed

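The deposited series table holds estimated counts (expected counts, not all whole) per transcript entry for 18 libraries, per the file headers, which carry GENCODE names, biotypes and lengths. The submitters' processing notes name bcl2fastq (2.16.0.10) and mm10. The sources used here give no aligner, quantifier or counting strand. On mm10 models, 35 of the 77 genes overlap an antisense gene. Counts were summed per gene and rounded, and 92 ERCC entries were left out.

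All genes were fitted with edgeR 4.0.16 in R 4.3.3 (TMM, filterByExpr, quasi-likelihood F test, Benjamini-Hochberg adjustment over all tested genes, called at 0.05, two-sided). Comparisons within RT-RamDA are contrasts in a fit of its 15 libraries; those with bulk were fitted on 6 libraries each. CPM are TMM-scaled over all 18 libraries. Scripts were tested on simulated data. DESeq2 1.42.0 was an alternative, beside other scalings, filters, designs, protein-coding entries only and leaving out each library.

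Same-numbered libraries were not taken as pairs: their residuals correlated between -0.0521 and 0.0485 over 3313 genes, and 3 of 18 matched their own number best.

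Genes were named by rule: up to 8 called members per direction by size, otherwise the 4 with the smallest p, and the 4 most abundant, 3 longest, 3 shortest and the Mrps18 family. The members and lists were chosen with earlier results of these data known. Library totals with ERCC entries were 5362297 to 10326614 counts, and the lowest count of a member in a bulk library was 17.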

Additional observations from a re-analysis of the deposited data

How the results depend on the processing

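Calls depended on the settings more than directions did. Against dT, random primers gave 27 lower members, 70 with scaling by library totals alone, 15 without the filter and 14 with protein-coding entries alone; leaving out 1 library gave 19 to 23. Of the 27, 27 were shared with library totals, 15 without the filter and 12 with protein-coding entries, and none changed sign under any alternative. Scaling by library totals moved the median of all genes to -0.80 there, and to -1.39 with N6 and -1.22 with N6dT against bulk, so its counts of lower members (73 with N6, 60 with NSR, 72 with N6dT, 31 with NSRdT) stand against that shift, with 56.4, 38.4, 52.2 and 24.1% of all genes lower. For dT added to random primers, 1 higher became 3 by library totals, 4 by DESeq2, and 0 with DESeq2 size factors, protein-coding entries alone or only the groups compared (0 to 1 with 1 library left out). For dT against bulk, 10 higher became 5 by library totals and 16 by DESeq2, where 3.93 and 9.64% of all genes were higher. With protein-coding entries alone the count was 4, near the share of all genes (5.23%). With all 18 libraries in 1 fit it was 6, where 749 of 16766 genes were higher. With 1 library left out the count was 0 to 19 (lower, 0 to 1). For N6 against bulk, 3 lower became 11 by DESeq2 and 0 without the filter, with protein-coding entries alone or with all libraries in 1 fit (0 to 11 with 1 library left out; higher, 0 to 1). For NSR, 2 lower became 9, 1 without the filter and 0 with all libraries in 1 fit (0 to 10; higher, 0 to 1). For N6dT, 1 lower became 3 by DESeq2, with 1 higher, and 0 without the filter, with protein-coding entries alone or with all libraries in 1 fit (0 to 3; higher, 0 to 1). For NSRdT, 0 lower became 1 by DESeq2 (0 to 1 in either direction). By DESeq2, 6.30, 6.81 and 4.82% of all genes were lower with N6, NSR and N6dT. The cause was not tested.

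With the replicate number as a block, the count for random primers against dT was 23, where 1052 of 15682 genes were lower. It was 0 for dT added, where 253 of 15682 genes were higher, and 0 for every comparison with bulk. Against bulk, 364 of 15708 genes were higher with dT. Lower were 285 of 15207 genes with N6, 307 of 15418 with NSR, 131 of 15234 with N6dT and 140 of 15553 with NSRdT. Libraries with the same number share only the number.

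Signs turned, in members that were not called, for Mrpl15 (0.43), Mrps5 (0.09) and Mrps18c (0.25) against dT with protein-coding entries alone, for Mrpl53 (-0.13) against dT and Mrps14 (-0.20, NSRdT against bulk) with library totals, and in the called Mrps24 (-0.43, dT against bulk) with protein-coding entries alone. Without rRNA and mitochondrial genes in the denominator, the members' share was 0.123% for N6, 0.142% for NSR, 0.347% for dT, 0.155% for N6dT, 0.209% for NSRdT and 0.270% for bulk. With protein-coding entries alone it was 0.0657, 0.0773, 0.266, 0.0882, 0.129 and 0.217%. At 10 counts or more, a mean of 73.3 members was detected with N6, 74.0 with NSR, 76.3 with N6dT and 76.7 with NSRdT, against 76.7 to 77 of 77 at 1 count.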
